A study of Homo sapiens with 6 samples.

Results

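Notch signalling genes were examined for RNA that carries N1-methylguanosine (m1G), a methylated form of guanosine, in PANC-1, an established cell line of human pancreatic ductal adenocarcinoma. The set was fixed by name and held 10 of the 20050 protein-coding genes of the gene table, namely the receptors NOTCH1, NOTCH2 and NOTCH3, the ligands JAG1, JAG2 and DLL1, the nuclear factors RBPJ and MAML1, and the target genes HES1 and HEY1. Every row of the deposited peak lists that fell inside their gene spans was taken, which gave 41 of 18431 MeTDiff peaks and 10 of 6264 MACS2 summits. The 6 libraries came from fragmented polyA+ RNA of siRNA-transfected cells. Control cells gave 1 input and 2 m1G precipitates, and cells depleted of TRMT5, an enzyme that places m1G in tRNA, for 4 days gave 1 input and 2 precipitates. The peak lists name no sample, and which libraries were pooled for them was not stated. No value below therefore separates depleted from control cells or carries a replicate error. Every fold enrichment, FDR (false discovery rate) and score is the authors' own. Because the RNA came from bulk culture, a modification carried by few cells and a weak one carried by many cannot be told apart.

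Notch receptors are membrane proteins that bind Jagged and Delta-like ligands on neighbouring cells. Ligand binding lets metalloproteases and then gamma-secretase cut the receptor, and the released intracellular domain enters the nucleus, joins the DNA-binding protein RBPJ and recruits Mastermind-like coactivators such as MAML1. Repressors of the HES and HEY families are the classical target genes, and the pathway is known for its part in pancreatic progenitor cells and in metaplasia and cancer of the exocrine pancreas.

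Of the 10 genes, 7 had a MeTDiff peak, against 37.2% of all protein-coding genes. A MACS2 summit lay in 4, against 18.0%, and those 4 (NOTCH1, NOTCH2, NOTCH3 and JAG2) were also the genes with a peak in both lists, against 16.8%. The same 4 genes had 8 or more MeTDiff peaks each, a number reached by 1.19% of protein-coding genes and set at the lowest count of the 4 after their values were seen. With an FDR of at most 0.01 NOTCH1 fell to 2 peaks, and with a fold of at least 4 each of the 4 genes had 4. DLL1, RBPJ and HEY1 had neither a peak nor a summit. The lists hold no expression values, so a transcript that was not made and a transcript without m1G cannot be told apart. These shares are descriptions, and the part of transcript length and abundance in them was not tested.

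The cell line was checked against cell type markers, for which a peak shows only that RNA of the gene was recovered. Of 9 ductal or epithelial markers 7 had a MeTDiff peak, the keratin genes KRT8, KRT18 and KRT19 among them, while KRT7 and CDH1 had none. KRT8 and KRT18 each had 1 peak that also fell in another gene. Of the markers with a peak, KRT18, KRT19, EPCAM, SOX9, COL1A1 and COL3A1 had no known strand here and took peaks of both strands. None of 5 acinar, 4 endocrine and 3 endothelial markers had a peak. Of 6 fibroblast markers the collagen genes COL1A1 and COL3A1 had peaks, and of 4 leukocyte markers only CD68 did. With a peak in 37.2% of all protein-coding genes, the fibroblast and leukocyte counts are near the background, and classes this small say little.

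A few short sequences show where the enrichment touched the start of receptor transcripts. In NOTCH2 and NOTCH3 a MeTDiff peak reached into the first 50 transcribed bases that the RefSeq promoter table (build GRCh38.p14) holds. The same stretch, bases 18 to 47 from the RefSeq start, is given for both, because in NOTCH2 it is centred on a MACS2 summit at base 33. The NOTCH2 stretch is chr1:120069616-120069645 and the NOTCH3 stretch chr19:15200949-15200978, both read from the minus strand, and capitals mark guanines, the base that m1G modifies.
NOTCH2: acccGaGaaaGtttcaGccaaacttcGGGc
NOTCH3: GcGcGGaGGctGGcccGGGacGcGcccGGa
The NOTCH2 stretch has 7 guanines in 30 bases and the NOTCH3 stretch 15. Over the first 50 bases the share of guanine was 28% in NOTCH2, 46% in NOTCH3 and 54% in NOTCH1, against a median of 30% over 35116 RefSeq starts. A guanine-rich start was thus not common to the receptors, since that of NOTCH2 lay below the median. The peak calls do not resolve which base was methylated.

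The MeTDiff peak edge nearest the gene start was 50 bp from it in NOTCH1, 9 bp in NOTCH2 and 0 bp in NOTCH3. Among the 6149 protein-coding genes with a peak and a known strand, 43.4% had a peak edge at most 500 bp from their start, so 3 of the 7 Notch genes with a peak is close to the background. The only peak of the further receptor gene NOTCH4 lay at the other end, 28374 bp from the gene start and 750 bp from the 3′ end. In HES1 the nearest edge was 716 bp from the start and in JAG2 799 bp. By their midpoints, counted along the blocks (the separate stretches of genome that the list gives for a peak), 3 of the 41 peaks lay within 500 bp of a 5′ end and 0 within 500 bp of a 3′ end. Over all peaks in genes of known strand these shares were 17.3% and 6.71%.

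**Figure D1:**
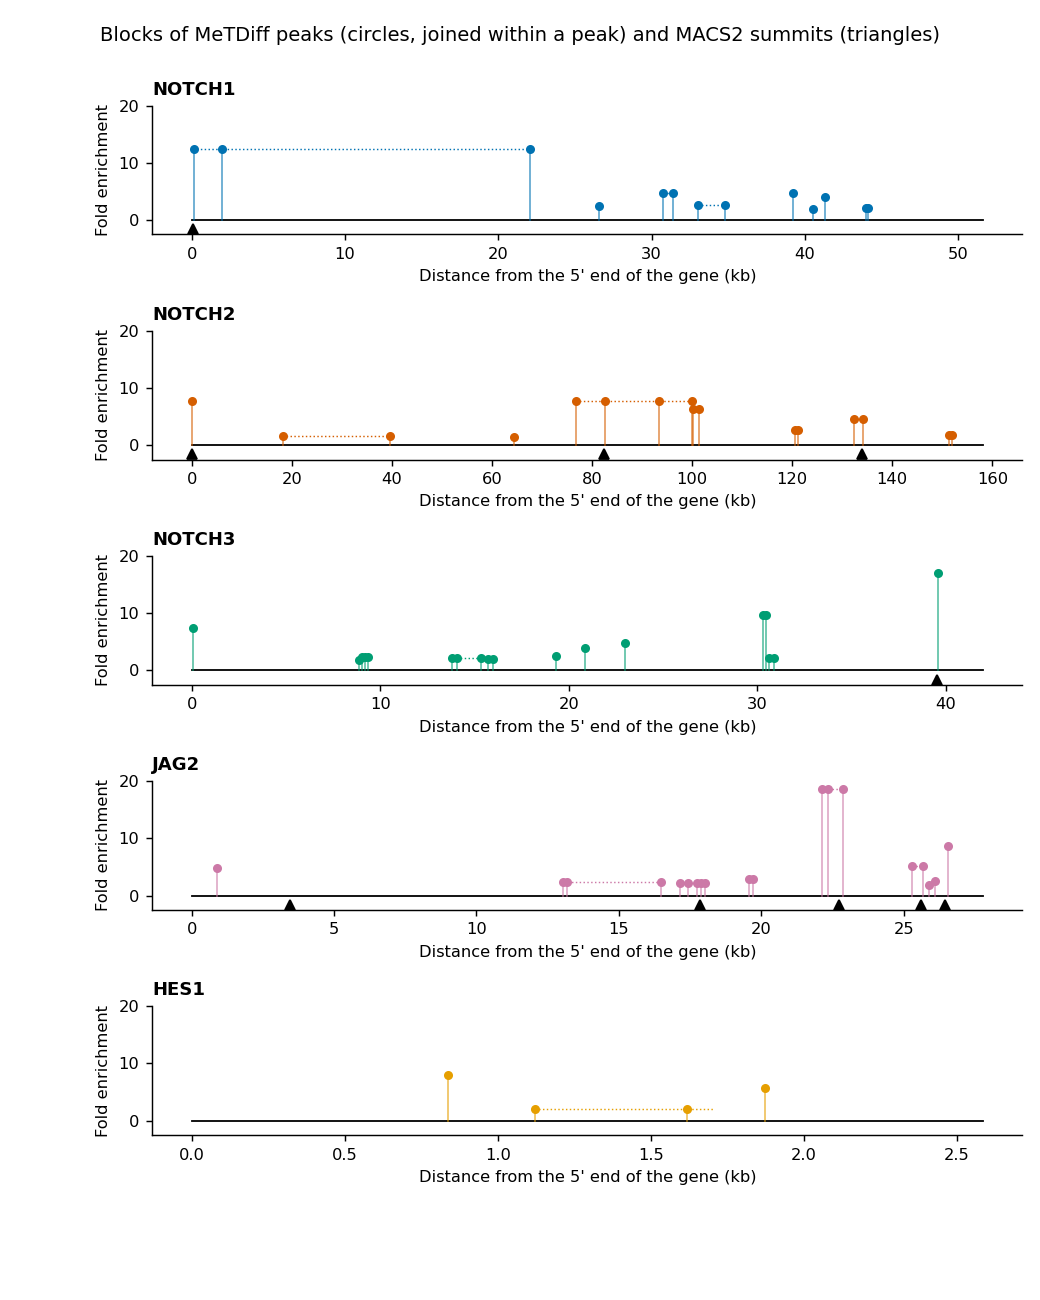
MeTDiff peaks and MACS2 summits along the 5 genes with 3 or more peaks. The x axis gives the distance from the 5′ end of the gene in kb (each gene on its own scale) and the y axis the authors' fold enrichment; each circle is a block, dotted lines join the blocks of a spliced peak, and triangles under the line are MACS2 summits. The highest circles belong to the 12.5-fold peak of NOTCH1, which starts at the 5′ end and joins blocks over 22067 bp, to the 17.0-fold peak near the 3′ end of NOTCH3 and to the 18.6-fold peak 5417 bp from the 3′ end of JAG2.

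NOTCH1 encodes the receptor known for activating mutations in T-cell leukaemia and for opposed roles in different epithelia. Its 8 peaks (ENSG00000148400, chromosome 9, gene span 136494433 to 136546048) had fold enrichments, from the 5′ to the 3′ end, of 12.5, 2.43, 4.83, 2.60, 4.67, 1.88, 4.12 and 2.12. The first peak stood apart, at more than 92.4% of the folds in the list, while the 7 others lay between 26556 and 44035 bp from the 5′ end and below 5-fold. It joined 3 blocks of 273, 79 and 48 bp over 22067 bp of genome (136523932 to 136545998). The FDR values of the NOTCH1 peaks were weak for the list, from 0.00501 for the first peak to 0.0191. At an FDR of at most 0.01 only 2 of the 8 NOTCH1 peaks remained, those of 12.5-fold and 4.83-fold. The only summit of NOTCH1, with a score of 12.3, lay inside the 273 bp block, 70 bp from the 5′ end (position 136545978). A long noncoding RNA gene on the opposite strand, LOC124902310, overlaps the span, and 4 of the NOTCH1 peaks had a block inside it. MeTDiff peaks carry a strand, and all 8 were on that of NOTCH1.

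NOTCH2 encodes the receptor known for its role in bile duct development. Its 8 peaks (ENSG00000134250, chromosome 1, gene span 119911553 to 120069662) had folds of 7.73, 1.58, 1.39, 7.75, 6.43, 2.7, 4.54 and 1.73 from the 5′ to the 3′ end. High folds therefore occurred at the 5′ end and again in the middle of the gene, with the lowest values between them. The 5′ peak was an unspliced stretch of 300 bp (120069354 to 120069653), and the 7.75-fold peak joined 4 blocks of 7, 3, 123 and 18 bp over 23062 bp of genome (119969738 to 119992799). What set NOTCH2 apart from the other Notch genes was its FDR, which ran from 3.02e-10 to 9.55e-10. Between 0.315% and 0.597% of the list had a smaller FDR than the NOTCH2 peaks, although only 3.21% of the list had a lower fold than its 1.58-fold peak. Neighbouring peaks of NOTCH2 often had the identical p-value, and its 8 peaks held only 4 distinct ones. This was not particular to NOTCH2, since 25 of the 41 Notch peaks shared a p-value with another peak of their gene. Values of FDR that repeat in this way do not rank neighbouring peaks. The 3 summits of NOTCH2 had scores of 31.9 at 32 bp from the 5′ end, 18.9 at 82497 bp and 20.1 at 133967 bp. The summit at the 5′ end was inside the 7.73-fold peak, and it is the summit on which the NOTCH2 sequence above is centred.

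The 5′ part of NOTCH2 has near-identical copies on chromosome 1, the NOTCH2NL genes, and how reads shared between them were placed is not given in the sources used here. The value of the NOTCH2 peak at the 5′ end is uncertain to that extent. How far along NOTCH2 the copied part reaches was not examined. The same doubt may therefore hold for the 1.58-fold and 1.39-fold peaks, with midpoints 39701 and 64368 bp from the 5′ end, and for peaks beyond them. The order of folds along NOTCH2 and its FDR values carry this limit too. Each of the NOTCH2NL genes NOTCH2NLA, NOTCH2NLB, NOTCH2NLC and NOTCH2NLR had at least 1 MeTDiff peak of its own, with largest folds of 4.75, 13.2, 3.50 and 5.50.

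NOTCH3 encodes the receptor known for its role in vascular smooth muscle and for amplification in some carcinomas. It had the most peaks of the set, 11 (ENSG00000074181, chromosome 19, gene span 15159038 to 15200995), with folds of 7.38, 1.79, 2.29, 2.2, 1.93, 2.56, 3.88, 4.75, 9.75, 2.23 and 17.0 from the 5′ to the 3′ end. The 17.0-fold peak (15161328 to 15161477) exceeded 96.3% of the list and had its midpoint 2364 bp from the 3′ end. Folds thus were high at the start of NOTCH3, low over its first part and highest towards its end, and the strongest peaks of NOTCH1 and NOTCH3 lay at opposite ends of their genes. The FDR ran from 0.00102 to 0.00589. By FDR the 5′ peak came first, so the choice of the leading NOTCH3 peak depended on the measure, with 7.38-fold by the smallest p-value and 17.0-fold by fold. Its only summit (score 12.5, position 15161480) lay 3 bp outside the 17.0-fold peak. The only other protein-coding gene with 11 peaks and 1 summit was CROCC, which encodes a component of the ciliary rootlet, with a largest fold of 8.5.

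**Figure D2:**
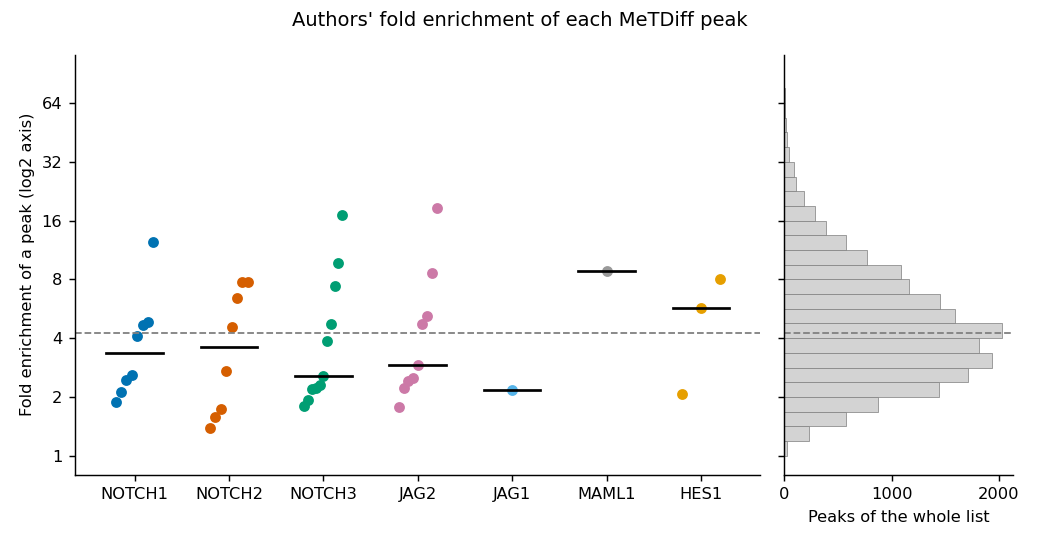
Fold enrichment of every MeTDiff peak in the 7 genes that had any. Left, each point is a peak, the black bar is the median of the gene and the dashed line the median of the whole list (4.24); right, the histogram of all 18431 peaks on the same log2 axis. The medians of NOTCH1, NOTCH2, NOTCH3, JAG1 and JAG2 lie below the dashed line, and each of NOTCH1, NOTCH2, NOTCH3 and JAG2 has peaks above it.

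The ligands differed from each other. JAG2, a Jagged ligand, had 9 peaks and 5 summits, JAG1 had 1 peak and no summit, and DLL1, a Delta-like ligand, had none of either. In JAG2 (ENSG00000184916, chromosome 14, gene span 105140995 to 105168776) the folds were 4.75, 2.42, 2.23, 2.93, 18.6, 5.19, 1.77, 2.50 and 8.67 from the 5′ to the 3′ end. The 18.6-fold peak, the largest of all 41, joined 3 blocks of 123, 116 and 62 bp (105145851 to 105146672) and exceeded 97.1% of the list. Its FDR of 0.00389 was also that of the 1.77-fold and 2.50-fold peaks. The smallest FDR of JAG2 belonged to another peak, of 5.19-fold, at 0.000525. Of the 9 peaks 5, the 18.6-fold peak among them, had their midpoints within 5417 bp of the 3′ end. The summit with the highest score of the set, 34.9 (position 105146036), fell between the blocks of the 18.6-fold peak. The other JAG2 summits had scores of 9.67, 17.2, 19.2 and 13.3, and the first of them was 2510 bp from any block.

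JAG1, the Jagged ligand mutated in Alagille syndrome, contrasted with JAG2 in its number of peaks. Its gene span was longer (36316 against 27782 bp), but spans are not transcript lengths, which were not used. Its single peak (ENSG00000101384, chromosome 20, 10641832 to 10642527) joined blocks of 61 and 40 bp, with a fold of 2.17 and an FDR of 0.00316. Only 12.8% of the list had a lower fold. The DLL1 span (chromosome 6, 170282206 to 170291078) overlaps that of FAM120B at 1 end, and no peak of either strand fell in it.

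JAG2 also holds a microRNA gene whose place matched a gap in a peak exactly. The 2.23-fold peak of JAG2 joined 5 blocks (105150707 to 105151629), and the gap of 87 bp between its first pair of blocks by coordinate, 105150778 to 105150864, is the whole span of the MIR6765 hairpin in RefSeq. Blocks thus lay on both sides of the hairpin and none overlapped it. The gap is one that the list itself gives within a spliced peak. Transcript models were not used, so whether a block could have been called there is unknown, and the absence says nothing about the hairpin. The mature sequences within the gap are given with the seed (bases 2 to 8) in capitals.
hsa-miR-6765-5p: gUGAGGCGgggccaggagggugugu
hsa-miR-6765-3p: uCACCUGGcuggcccgcccag
Their seeds differ. MicroRNA genes also lie in NOTCH1 (MIR4673, 26 bp from the nearest block), NOTCH3 (MIR6795, 753 bp) and JAG1 (MIR6870, 7109 bp). No block of these genes overlapped them, which has the same limit.

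Among the nuclear factors, MAML1, which bridges the receptor domain on DNA to histone acetyltransferases, had 1 peak (ENSG00000161021, chromosome 5, 179774698 to 179774847) of 8.83-fold with an FDR of 0.00631. It was unspliced, 150 bp long and centred 2511 bp from the 3′ end. The place resembled that of the strongest NOTCH3 peak, at 94.4% of the gene span in both. RBPJ, to which the released receptor binds, had no peak. Its gene span (chromosome 4, 329683 bp) was the longest of the set, and its transcript length was not used.

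HES1, a repressor that restrains differentiation of pancreatic progenitors, had 3 peaks and no summit (ENSG00000114315, chromosome 3, gene span 194136148 to 194138732). The folds were 8, 2.07 and 5.70 from the 5′ to the 3′ end, and the FDR values were 0.000224 for the first and 0.000398 for both others. With a span of 2585 bp it was the gene most densely covered relative to its span, since its blocks summed to 591 bp. Transcript lengths were not used, and the summed blocks were longer in NOTCH3 (1554 bp), JAG2 (1506 bp), NOTCH2 (1156 bp) and NOTCH1 (1106 bp). HEY1, another repressor among the targets (chromosome 8, span of 3758 bp), had no peak.

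Across the 41 peaks the folds ran from 1.39 to 18.6, with a median of 2.93 against 4.24 for the whole list, and 18 of the 41 exceeded the list median. Only 3 reached 10-fold (7.32%, against 12.7% of the list), and they belonged to NOTCH1, NOTCH3 and JAG2. Of the 41, 22 were spliced over several blocks (53.7%, against 33.1% of the list), and their median length along the transcript was 101 bp, against 150 bp. The largest fold in a gene had a median of 8.83 over the 7 genes with a peak. Each such value is a maximum over 1 to 11 peaks, so it is not comparable with the list median of single peaks. No like figure was made for other genes.

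**Figure D3:**
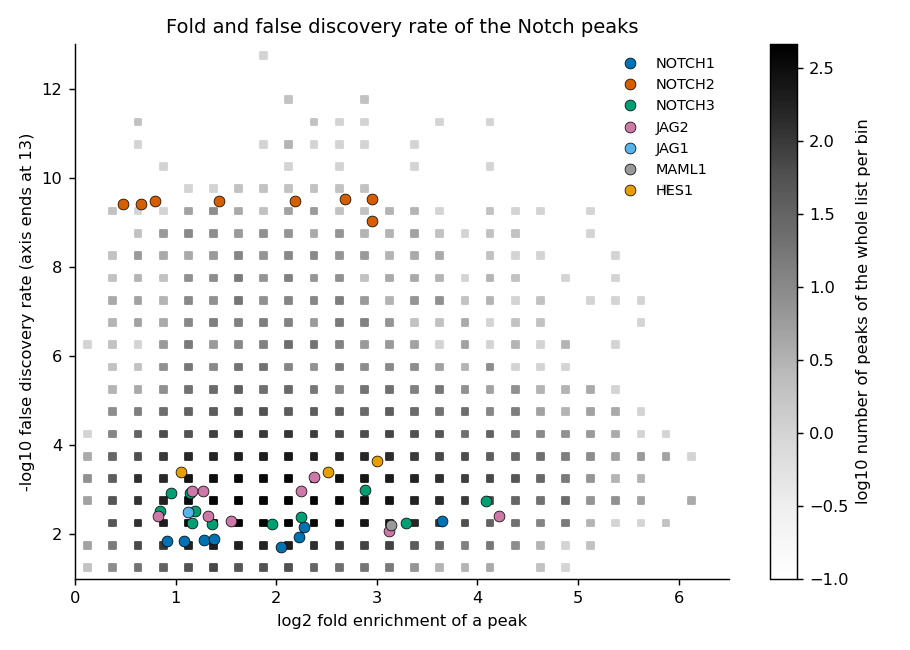
Fold and false discovery rate of the 41 Notch peaks (coloured by gene) over the whole MeTDiff list (grey bins, darker with more peaks). The x axis is log2 of the authors' fold and the y axis −log10 of the authors' FDR, and NOTCH2 forms a row above 9 on the y axis (FDR from 3.02e-10 to 9.55e-10) while its folds span 1.39 to 7.75.

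Of the 10 MACS2 summits 3 lay inside a block of a MeTDiff peak, in NOTCH1, NOTCH2 and JAG2, a share near the 38.3% of 4566 summits in genes with a peak. Counted over the whole span of a peak, gaps included, 7 of the 10 were inside. In 4 cases, 2 in NOTCH2 and 2 in JAG2, the summit fell in the gap between the blocks of a spliced peak, against 19.7%. Of the 7 summits outside a block, 6 were within 91 bp of the nearest block, and each of these 6 was on the 5′ side of it. The same side held for 88.0% of the 2173 summits that lay outside blocks and within 200 bp of them in all genes, so the Notch genes followed the lists in this. The distances were 3 bp in NOTCH3, 13, 50 and 63 bp in JAG2, and 83 and 91 bp in NOTCH2. Summit scores had a median of 18.1 in the Notch genes, against 16.4 over the list.

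**Figure D4:**
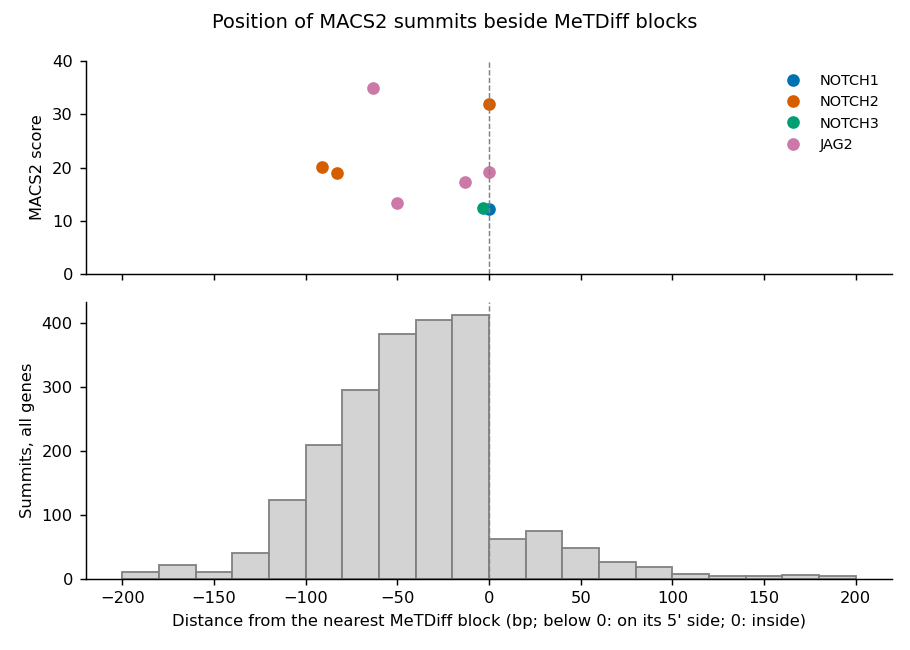
Distance of MACS2 summits from the nearest MeTDiff block of the same gene, in bp along the direction of transcription; negative values are on the 5′ side of the block and 0 is inside it. Top, 9 of the 10 Notch summits with their scores (a JAG2 summit 2510 bp away is off the axis), 6 of them below 0; bottom, counts of the 2173 summits of all genes outside blocks and within 200 bp.

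The other genes of the pathway were taken from a list of 67, of which 66 were in the gene table (CIR1 was not analysed here). Of the 66, 39 had a MeTDiff peak (59.1%, against 37.2% of protein-coding genes) and 20 a MACS2 summit (30.3%, against 18.0%). All 20 also had a peak, as did 3373 of the 3604 protein-coding genes with a summit, so this overlap is near that of the lists. Peaks were found in 11 of 15 corepressor genes, 4 of 5 further ligand genes, 4 of 6 genes that glycosylate the receptors and 5 of 9 protease genes. They were also found in 5 of 9 further HES, HEY and related genes (grouped as targets), 6 of 13 genes of ubiquitination and endocytosis, and 3 of 7 coactivator genes. In 1 of these 3 coactivator genes the only peak also fell in another protein-coding gene. The further receptor gene, NOTCH4, had 1 peak of 5.50-fold, and RBPJL had none.

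Among these 66 genes RFNG, a Fringe glycosyltransferase gene, had the highest fold, 19.5, in 6 peaks (chromosome 17, 82048150 to 82048397 for the strongest). Over the genes with the 8 largest folds, the FDR of that peak ran from 2.69e-09 in HES6 to 0.00631 in RFNG. The order by fold is thus not the order by FDR. The highest score, 43.9, was that of KDM1A, a histone demethylase gene of the corepressor group, with 1 peak of 18.9-fold. The corepressor gene TLE5 reached 16.7-fold and a score of 35.7. Of the genes grouped with the targets, NRARP, a feedback inhibitor of the pathway, reached 19-fold, HES6 16.8-fold and HES7 15-fold. Each exceeded the 8-fold of HES1, while HES4 had 5-fold and a score of 27.8. Whether each gene of this group responds to Notch was not tested. MIB2, an E3 ligase gene for ligand endocytosis, had 9 peaks, a largest fold of 15.8 and a score of 31.4. FBXW7, whose product marks the released receptor domain for degradation, reached 14.5-fold. The protease gene FURIN, which cleaves the receptor on its way to the surface, had a score of 34.3 and a largest fold of 7.61.

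**Figure D5:**
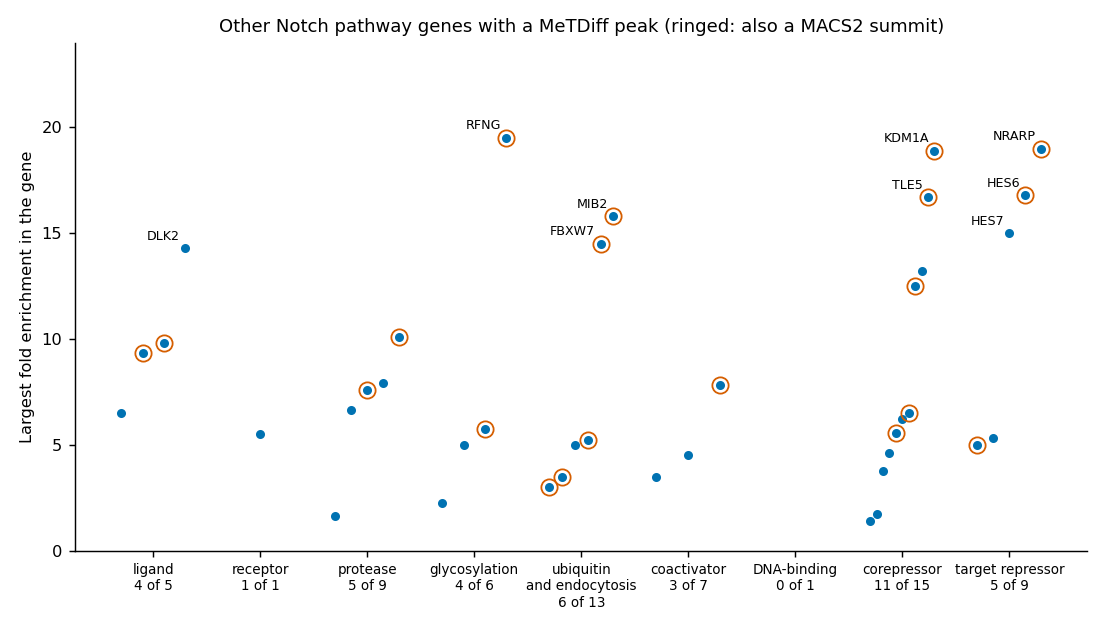
Largest fold of the 39 further Notch pathway genes with a MeTDiff peak, by role; the y axis is the authors' fold, each point is a gene, rings mark genes that also had a MACS2 summit, and the counts under each role give genes with a peak out of genes in the table. RFNG, at 19.5-fold, is the highest point.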

How the data were processed

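Peak lists made by the authors were used as deposited. The submitters' processing notes name STAR 2.7.1, MACS2 2.2.5 and build GRCh38, while settings and the pooling of libraries were not stated in them. The deposited MACS2 list gives a −log10 score (p or q not stated) per summit. The deposited MeTDiff list gives a p-value, the log10 of an FDR and a linear ratio (fold enrichment against input), as inferred from the order and range of its columns. No list holds counts, so depth is unknown and no test was run.

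A peak belonged to a gene when a block overlapped its RefSeq span (GRCh38.p14) on its strand, taken from the RefSeq promoter table, which holds 8 of the 10; genes without a strand there (DLL1, HEY1) took both strands. Transcript models were not used, so exon and UTR are not assigned. Backgrounds are protein-coding genes. The assignment was tested on simulated data. Genes named were the 10 members, pathway genes with the 8 largest folds or 5 highest scores, and NOTCH3's nearest match; NOTCH4, RBPJL, the NOTCH2NL genes and overlapping genes were added after their values were seen. A further pathway gene is not reported here. Members and lists were chosen with earlier results of these data known. Alternatives changed strand, overlap, thresholds and end distance. Python 3.11.15 and pandas 2.3.3 were used.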

Additional observations from a re-analysis of the deposited data

How the results depend on the processing

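The total of 41 Notch peaks was 41 on either strand and without peaks shared with another gene of the same strand, 35 at an FDR of at most 0.01 and 19 at a fold of at least 4, where 6 of the 7 genes kept a peak and JAG1 did not. The 10 summits became 3 at a score of at least 20, in 2 genes in place of 4. The overlap of the lists was 3 of 10 summits inside a block, 7 inside the whole span of a peak and 9 within 100 bp of a block. Peaks near a gene end went from 3 within 500 bp to 7 within 1000 bp, of which 5 were at the 5′ end and 2 at the 3′ end. The other 20 of 26 comparisons of these totals, shares and medians stayed within 1.5 times their value. No paired analysis was possible because the lists carry no sample or replicate, and for the same reason no replicate could be left out. Depth is unknown, and an absent peak sets no limit on m1G.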

Other observations

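The NOTCH2NL genes, copies of the 5′ part of NOTCH2 that enhance Notch signalling in the developing human cortex, all had MeTDiff peaks in this pancreatic line. In NOTCH2NLA, NOTCH2NLC and NOTCH2NLR each peak began no more than 102 bp from the gene start, the place of the 7.73-fold peak of NOTCH2. NOTCH2NLB had peaks of 13.2-fold and 11.5-fold and a MACS2 summit with a score of 43.1, above the 31.9 of NOTCH2. Its peaks lay 32759 bp and 32796 bp inside the 5′ end of its RefSeq span, which reaches further beyond the peaks than the spans of the other copies. Counted from the 3′ end they lay at 79301 and 79307 bp, near the 79964 and 79985 bp of NOTCH2NLA. The peaks of NOTCH2NLC lay at 81019 and 81010 bp and that of NOTCH2NLR at 70615 bp. The NOTCH2NLB peaks are therefore not shown to differ in place from those of the other copies. In NOTCH2NLA, NOTCH2NLB and NOTCH2NLC the paired peaks overlapped on the same strand under different Ensembl IDs, so the same signal was listed more than once. How far reads shared with NOTCH2 entered these values was not tested.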
